A study of Homo sapiens with 94 samples.

Results

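Dosing an animal is itself a treatment. The comparison described here asked what oral dosing with the drug carrier, without any drug, did to the transcriptome of a human mesothelioma grown in mice. It set 19 vehicle tumors against 15 untreated tumors, 34 of the 94 tumors in the series, with the study each tumor came from as a blocking factor. Tumors were assigned to the arms by the compound and cage group in the sample labels. All tumors were NCI-H226 xenografts, from a human pleural mesothelioma cell line with a deletion of the tumor suppressor NF2, grown under the skin of female CB17 SCID mice, which lack functional T and B cells but keep macrophages, stroma and vessels of their own. The other 60 tumors received K-975, a covalent inhibitor that occupies the lipid pocket of TEAD transcription factors, and enter here only where their values are given side by side.

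The 3 studies differed in sampling time. The 1 h study held 5 untreated and 5 vehicle tumors, the 3-6 h study 5 untreated and 10 vehicle tumors, and the 24 h study 5 untreated and 4 vehicle tumors. Vehicle was given orally at 20 mL/kg and contained 12.5% ethanol, 12.5% Solutol (a solubilizing surfactant) and 75% injectable glucose at acid pH. Untreated animals received nothing. Time after dosing and study coincided, so they cannot be told apart. Within a study each arm was housed as its own cage group, and the cage and the arm cannot be told apart either. The exception was the 3-6 h study, where the vehicle arm had cage groups 2 and 3 of 5 tumors each. Which of these cage groups belongs to the 3 h and which to the 6 h sampling is not in the labels. Each tumor came from a different animal but all came from 1 cell line.

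Several things in a gavage with ethanol, surfactant and sugar can reach a tumor. Handling raises glucocorticoids, which switch on genes such as FKBP5 and PER1 through the glucocorticoid receptor. Glucose is read by the MondoA and ChREBP factors, whose main reporter is TXNIP, and surfactants and ethanol can touch lipid synthesis, oxidative stress and metal responses. The pathway the study set out to inhibit, YAP1 and TAZ acting through TEAD factors on targets such as CCN1 and CCN2, also responds to cell shape, nutrients and serum factors, so a vehicle effect there would shift the baseline of every drug comparison.

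Vehicle and untreated tumors had closely similar transcriptomes, and no gene passed the threshold. Of 12451 genes tested by limma on log2(FPKM + 1), 0 (0%) had an adjusted p under 0.05, and the smallest adjusted p was 0.919. FPKM counts fragments relative to transcript length and to the mapped fragments of the library. At an unadjusted p under 0.05 there were 621 genes, or 4.99% of those tested, of which 254 were higher and 367 lower with vehicle. At an unadjusted p under 0.001 there were 10 genes, or 0.0803%. A total of 5717 genes, 45.9%, had a positive log2 fold change, and the median over all genes was -0.0089. The limma p-values were spread almost evenly, with 589 to 698 genes in each of 20 equal bins against an equal share of 623.

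**Figure D1:**
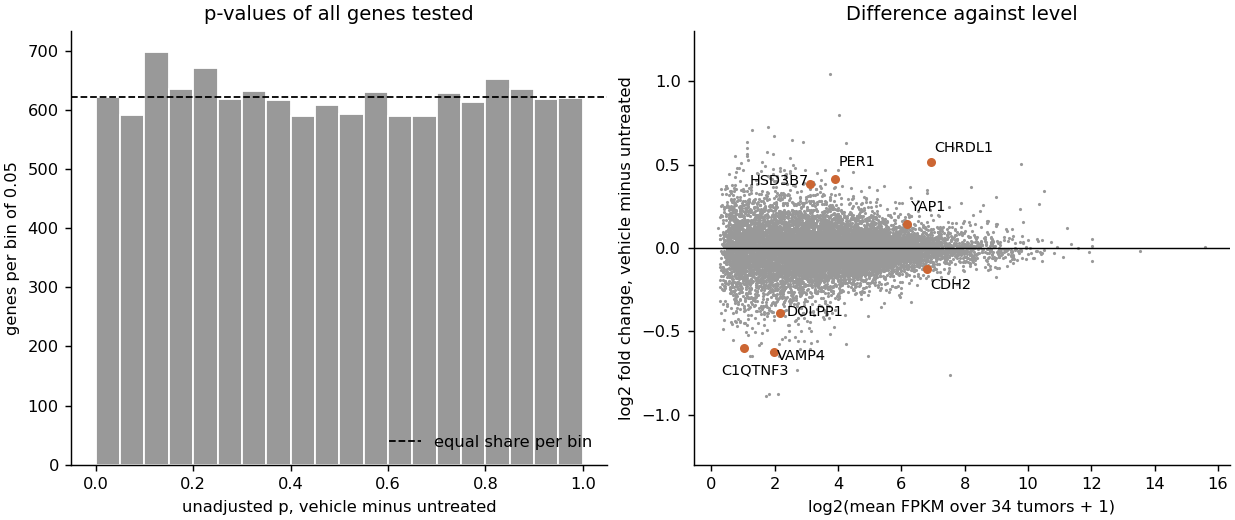
Left, number of genes per bin of unadjusted p for vehicle minus untreated over the 3 studies, with the equal share of 623 genes as a dashed line; the bins hold 589 to 698 genes. Right, log2 fold change against the level of each of the 12451 genes, log2 of the mean FPKM plus 1; the orange points are named genes, and 56 genes lie beyond 0.5 in either direction.

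The precision of the comparison bounds what could have been missed in the average over studies and vehicle cage groups. It does not bound an effect confined to a single study or cage group. The 95% interval of the log2 fold change lay inside -1 to 1 for 12379 genes, 99.4% of those tested, and inside -0.5 to 0.5 for 10930 genes, 87.8%. The median half-width of the interval was 0.200 on the log2 scale, 0.294 for the low and 0.133 for the high tertile of expression. From the 1st to the 99th percentile, log2 fold changes ran from -0.36 to 0.33, and 56 genes exceeded 0.5 in absolute value. A single gene exceeded 1, MT-ND4L, a mitochondrially encoded subunit of respiratory complex I that was singled out after its value was seen. Its log2 fold change was 1.05 with an interval from -0.15 to 2.25. Values are relative to the total of each library, and a change shared by all genes could not be seen.

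Genes of the glucocorticoid response did not pass. PER1, a clock gene with glucocorticoid response elements, had the highest log2 fold change among the 12 tested members of that list, 0.41 with a 95% interval from -0.02 to 0.84 (limma unadjusted p = 0.0598, adjusted p = 0.964). At 1 h the 5 vehicle tumors had PER1 at 19.7, 23.3, 20.6, 22.7 and 20.6 FPKM, and the 5 untreated tumors at 18.9, 7.81, 12.7, 23.7 and 5.6 FPKM. The vehicle tumors were all high and close to each other, whereas the untreated tumors spanned the range from far below them to above them, so the groups overlapped. At 3-6 h the vehicle tumors ran from 5.49 to 24.1 FPKM with a median of 8.97, and 3 of the 10, at 22.1, 24.1 and 23 FPKM, stood apart from the other 7. The untreated tumors of that study ran from 6.3 to 16.6 FPKM. At 24 h the 4 vehicle tumors had 9.5, 20.9, 19.3 and 15 FPKM against 4.56 to 19.4 FPKM in untreated tumors. FKBP5, which encodes a co-chaperone that feeds back on the glucocorticoid receptor, was at 4.61 ± 1.53 FPKM with vehicle (SD, n = 19) and 3.72 ± 0.759 FPKM in untreated tumors (SD, n = 15), a log2 fold change of 0.20 with an interval from -0.02 to 0.42. At 1 h the vehicle tumors ran from 3.26 to 5.32 FPKM and the untreated ones from 2.53 to 4.18 FPKM, at 3-6 h from 3.37 to 8.59 and from 2.87 to 4.12 FPKM, and at 24 h from 3.51 to 3.83 and from 2.79 to 5.28 FPKM. The groups overlapped in each study, and the within-study log2 fold changes of FKBP5 were 0.34, 0.30 and -0.10. TSC22D3, which encodes the anti-inflammatory protein GILZ, was at 0.814 ± 0.778 FPKM with vehicle (SD, n = 19) and 0.615 ± 0.66 FPKM in untreated tumors (SD, n = 15), with a log2 fold change of 0.06 (interval -0.32 to 0.43). The studies differed in sign for TSC22D3, with -0.48 at 1 h, 0.59 at 3-6 h (interval 0.04 to 1.13, limma unadjusted p = 0.0352, adjusted p = 0.984) and -0.14 at 24 h. Of the 12 members tested, 0 passed, 8 were higher and 4 lower, and the list median of the log2 fold change was 0.038.

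Glucose-sensing genes did not pass either. TXNIP, the arrestin-like protein induced by MondoA and ChREBP that limits glucose uptake, was at 54.1 ± 16.2 FPKM with vehicle (SD, n = 5) and 48.5 ± 7.95 FPKM in untreated tumors (SD, n = 5) at 1 h. The values at 3-6 h were 62.5 ± 19.7 FPKM (SD, n = 10) and 58.2 ± 16.1 FPKM (SD, n = 5), and at 24 h 33.7 ± 7.75 FPKM (SD, n = 4) and 30.6 ± 6.24 FPKM (SD, n = 5). The arms overlapped in each study, and the pooled log2 fold change of TXNIP was 0.11 with an interval from -0.12 to 0.35. Its paralog ARRDC4 had a log2 fold change of 0.07 and an interval from -0.13 to 0.27. Of the 12 tested genes of the glucose list, 0 passed and 8 were higher, with a median of 0.051. The smallest p in the list belonged to HK1, a hexokinase, whose log2 fold change was 0.20 (interval 0.02 to 0.37, unadjusted p = 0.0275). IRS2, the insulin receptor substrate that FOXO factors induce in fasting, had a log2 fold change of 0.04 with an interval from -0.17 to 0.24, and in the insulin and FOXO list 5 of 13 genes were higher and the median was -0.025. PDK4, a mitochondrial kinase that fasting induces, had 0 in 33 of 34 libraries and was not tested.

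**Figure D2:**
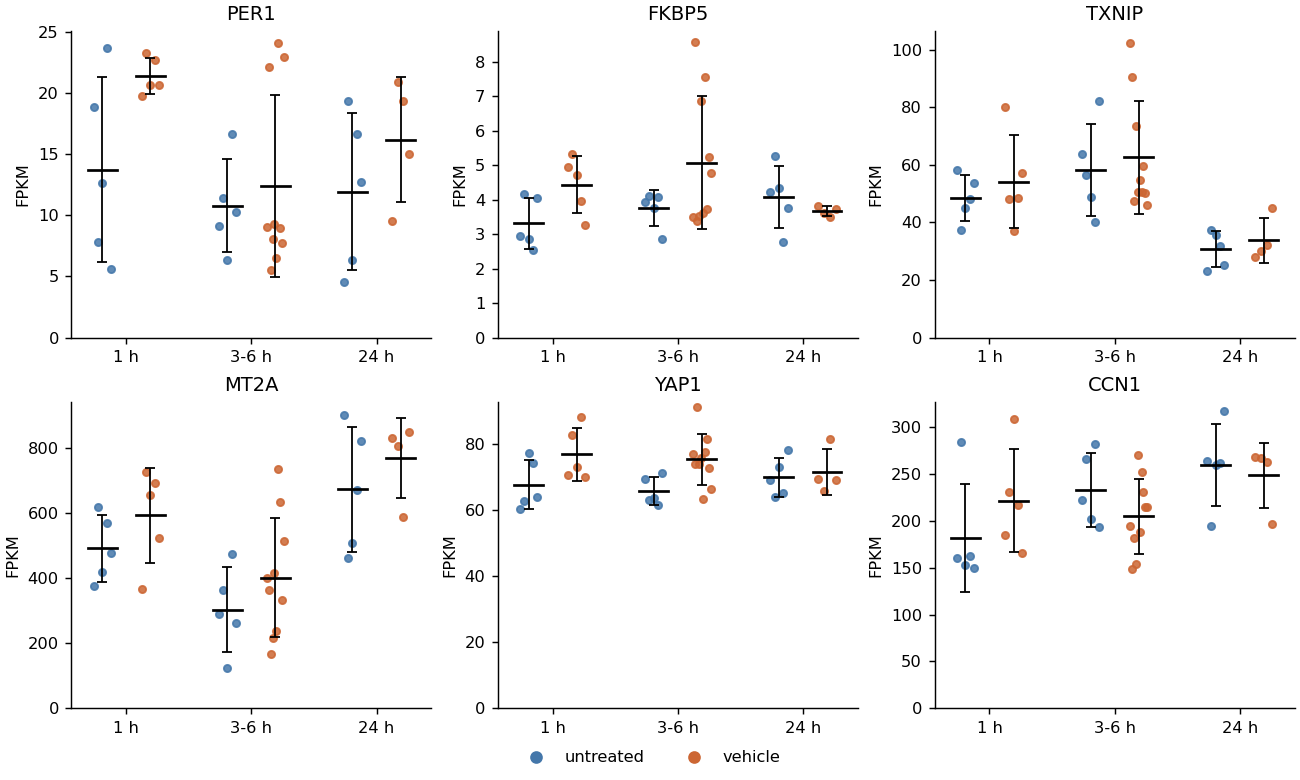
FPKM of 6 genes in each of the 34 tumors by study (1 h, 3-6 h, 24 h), untreated in blue and vehicle in orange, with the mean as a horizontal line and the SD as an error bar. The arms overlap in every panel and study, for example PER1 at 1 h from 19.7 to 23.3 with vehicle and from 5.6 to 23.7 without, and YAP1 at 3-6 h from 63.4 to 91.4 and from 61.6 to 71.2.

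The list medians of lipid, ethanol and xenobiotic genes stayed close to 0, although single members lay farther off, and no gene passed the threshold. Of 19 sterol synthesis genes, the targets of SREBP2, 13 were higher and 6 lower, and the median log2 fold change was 0.032. Within them HMGCS1 had -0.10 (interval -0.33 to 0.12), INSIG1 0.04 (interval -0.18 to 0.26) and STARD4, a cholesterol carrier, 0.19 (interval 0.01 to 0.37, unadjusted p = 0.0355). In the fatty acid synthesis list 6 of 10 genes were higher with a median of 0.009, and SCD, the stearoyl-CoA desaturase, had 0.05 (interval -0.13 to 0.22). The largest value there, 0.34, was that of ELOVL6, an elongase (unadjusted p = 0.112). In the list of fatty acid oxidation and PPAR targets 5 of 10 genes were higher, with a median of -0.001 and the smallest p for ACADM, a mitochondrial acyl-CoA dehydrogenase, at -0.18 (unadjusted p = 0.0432). The highest value there was 0.35, for ANGPTL4, which like ALDH2 below was named after its value was seen. Ethanol and aldehyde metabolism had 7 of 9 tested genes lower, a median of -0.083 and a lowest value of -0.23, for ALDH2. ADH5, the ubiquitous class III alcohol dehydrogenase, had the smallest p in it, with a log2 fold change of -0.11 (interval -0.22 to -0.00, unadjusted p = 0.0468), and ALDH1A1 was listed at 0 in 12 of 15 untreated and 17 of 19 vehicle libraries. CYP1A1, the reporter of the aryl hydrocarbon receptor, was listed at 0 in all 34 libraries, and CYP1B1, another of its targets, had 0.01 (interval -0.26 to 0.27). In that list 4 of 7 genes were higher, with a median of 0.008, and TIPARP had the smallest p (log2 fold change 0.20, unadjusted p = 0.117).

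Stress and signaling lists gave the same count of 0. HMOX1, which encodes heme oxygenase 1, had a log2 fold change of 0.04 (interval -0.27 to 0.35). In the NRF2 list 7 of 12 genes were higher with a median of 0.052, and PGD of the pentose phosphate pathway had the smallest p (0.07, unadjusted p = 0.147). Among 14 heat shock chaperones, 12 were lower with a median of -0.059, and HSPA8, the constitutive HSC70, had -0.11 (interval -0.21 to 0.00, unadjusted p = 0.0522). HSPA1A, the stress-induced member, was at most 0.226 FPKM in any library and shares near-identical sequence with HSPA1B, so its level is uncertain. Of 22 immediate early genes 8 were higher, and the median was -0.037. FOS had -0.18 (interval -0.57 to 0.21), EGR1 0.10 (interval -0.21 to 0.41), NR4A1 -0.13 (interval -0.50 to 0.24) and IER3 -0.33 (interval -0.71 to 0.05). The cAMP and CREB list had 6 of 9 genes higher, with a median of 0.082. DDIT4, an mTORC1 inhibitor shared by several of the lists, had -0.17 (interval -0.66 to 0.31). In the integrated stress and unfolded protein response 7 of 18 genes were higher with a median of -0.013, and ATF4 had 0.06 (unadjusted p = 0.0993). In the osmotic list 5 of 7 genes were higher with a median of 0.039, and SLC38A2, an amino acid transporter, had 0.10 (unadjusted p = 0.0560).

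**Figure D3:**
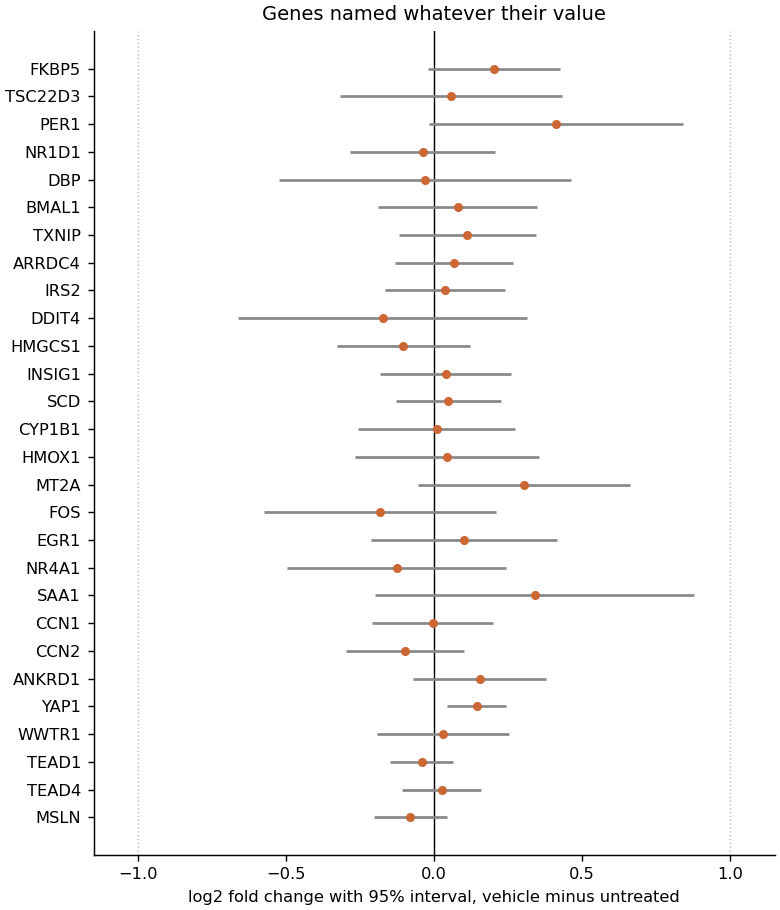
Log2 fold change of 28 genes, vehicle minus untreated over the 3 studies, with 95% intervals from limma; the dotted lines mark -1 and 1. Every interval lies inside the dotted lines and all but that of YAP1, from 0.04 to 0.24, include 0.

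Clock genes are where sampling at different hours of the day would show. Of 16 tested, 0 passed, 12 were lower and 4 higher, and the median was -0.033. BMAL1 had 0.08 (interval -0.19 to 0.35), NR1D1 -0.04 (interval -0.28 to 0.21) and DBP -0.03 (interval -0.52 to 0.46), the last with a wide interval. Within studies BMAL1 had 0.48 at 1 h, -0.22 at 3-6 h and 0.09 at 24 h. The ends of the list were PER1 at 0.41 and BHLHE41, a repressor of the clock named after its value was seen, at -0.42 (interval -0.98 to 0.14, unadjusted p = 0.138). In the same fit 1214 genes (9.75%) differed between studies by limma's moderated F-test at an adjusted p under 0.05. Of the 16 clock genes tested, 3 did: DBP, NR1D1 and RORA, the last named after its value was seen. The study term held these differences apart from the arm comparison, and the part of sampling hour in them was not tested.

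The interferon response and the metallothioneins had the list medians farthest from 0 among the response lists. In the interferon list 19 of 20 genes were higher with vehicle, against 45.9% of all genes, the median was 0.19, and 0 passed. The range ran from -0.07 for IRF9 to 0.39 for IFI44L. HLA-B, a class I antigen presentation gene, had the smallest p, with a log2 fold change of 0.20 (interval 0.02 to 0.38, unadjusted p = 0.0299) and near-identical relatives among which reads can be split. At 1 h HLA-B was at 328, 377, 367, 387 and 319 FPKM with vehicle and at 292, 331, 269, 289 and 243 FPKM without, so 3 of the 5 vehicle tumors lay above all untreated ones and the groups overlapped. At 24 h the means were 331 ± 23.0 FPKM (SD, n = 4) and 328 ± 36.9 FPKM (SD, n = 5). The list median was 0.37 at 1 h, 0.13 at 3-6 h and 0.01 at 24 h. Interferon genes are induced together, so members are not independent of each other. The list level of each tumor, the mean log2(FPKM + 1) over the 20 genes, ran from 5.63 to 6.21 with vehicle and from 5.36 to 6.02 without at 1 h, from 4.97 to 6.34 and from 4.97 to 6.01 at 3-6 h, and from 5.63 to 5.93 and from 5.48 to 5.97 at 24 h. The arms overlapped in each study.

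All 4 tested metallothioneins, the cysteine-rich proteins that buffer zinc and copper and respond to metals and glucocorticoids, were higher with a median of 0.29, and 0 passed. MT1E had 0.27 (interval 0.03 to 0.52, unadjusted p = 0.0290), with 15 of 19 vehicle tumors above the untreated median of their study. MT2A had 0.30 (interval -0.05 to 0.66, unadjusted p = 0.0942). Its vehicle tumors ran from 166 to 737 FPKM with a median of 381 at 3-6 h, and the untreated ones of that study from 122 to 475 FPKM. The untreated level of MT2A itself moved between studies, with means of 492 ± 102, 303 ± 130 and 673 ± 192 FPKM (SD, n = 5 each) at 1 h, 3-6 h and 24 h. The list median was 0.27, 0.53 and 0.04 in the order of the times. Metallothionein genes are close copies of each other, and the deposited values could split shared reads among them.

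**Figure D4:**
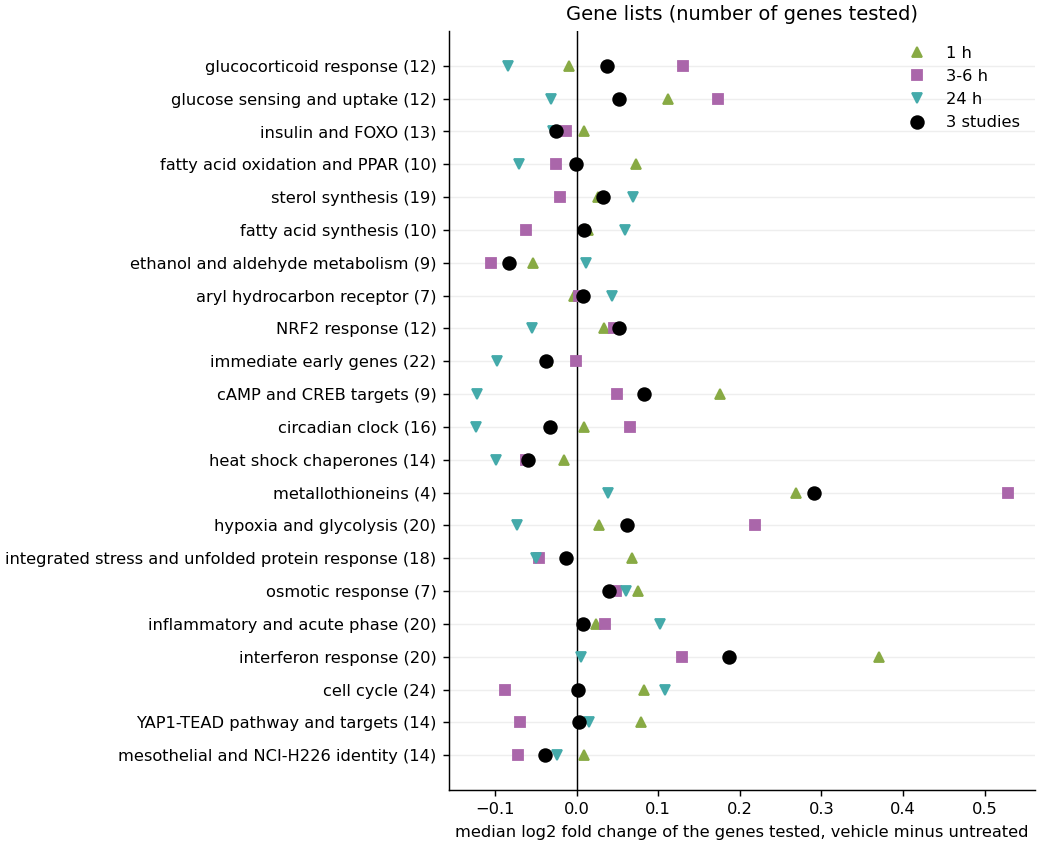
Median log2 fold change of the tested genes of 22 lists, vehicle minus untreated, within each study (colored symbols) and over the 3 studies (black circles), with the number of genes tested in brackets. Most black circles lie within 0.1 of 0; the metallothioneins (0.29) and the interferon response (0.19) are the exceptions, and no gene of any list passed the threshold.

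Hypoxia and glycolysis genes had 16 of 20 members higher and a median of 0.062, but the studies differed in direction, with list medians of 0.028 at 1 h, 0.22 at 3-6 h and -0.073 at 24 h. PFKP, the platelet phosphofructokinase, had 0.13 (interval 0.03 to 0.23, unadjusted p = 0.0157). The inflammatory and acute phase list was evenly split, 10 higher and 10 lower with a median of 0.008, although its members were among the least precise. SAA1, serum amyloid A, had 0.34 (interval -0.20 to 0.88), and CCL20, a chemokine, 0.60 (interval -0.12 to 1.32). Cell cycle genes were split 12 to 12 with a median of 0.002, and E2F1 had -0.16 (unadjusted p = 0.161).

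The YAP1-TEAD pathway, the target of the drug, had a list median near 0. Of its 14 listed genes 0 passed, 7 were higher and 7 lower, and the median was 0.002. CCN1, also called CYR61, a secreted matricellular target, was at 219 ± 44.5 FPKM with vehicle (SD, n = 19) and 225 ± 55.3 FPKM in untreated tumors (SD, n = 15), and its log2 fold change was -0.0047 with an interval from -0.21 to 0.20. CCN2, or CTGF, the other classical target, was at 11.0 ± 2.11 and 12.5 ± 3.56 FPKM, a log2 fold change of -0.10 (interval -0.30 to 0.10). The within-study values of CCN1 were 0.30, -0.19 and -0.06 at 1 h, 3-6 h and 24 h, and those of CCN2 were 0.22, -0.29 and -0.16. ANKRD1, a stretch-responsive target that this line expresses weakly, had 0.15 (interval -0.07 to 0.38). Among the factors themselves TEAD1 had -0.04 (interval -0.15 to 0.06), TEAD4 0.03 (interval -0.11 to 0.16) and WWTR1, which encodes TAZ, 0.03 (interval -0.19 to 0.25).

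For scale, the 5 tumors given 200 mg/kg K-975 in the 24 h study had CCN1 at 71.9 to 167 FPKM, CCN2 at 2.38 to 5.72 FPKM and TEAD4 at 26.5 to 32.9 FPKM. In the 4 vehicle tumors of that study CCN1 was at 196 to 268, CCN2 at 10.9 to 16 and TEAD4 at 45.8 to 52.3 FPKM. In the 5 untreated tumors CCN1 was at 194 to 318, CCN2 at 12.1 to 19.1 and TEAD4 at 40.3 to 49.0 FPKM. For these genes the vehicle and untreated ranges overlapped, and the treated range lay below both. A contrast of treated with vehicle tumors would share the vehicle tumors used here, so these values are set side by side without a test.

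YAP1 itself had the smallest p of the pathway. Its level was 75.0 ± 7.49 FPKM with vehicle (SD, n = 19) and 67.9 ± 5.87 FPKM in untreated tumors (SD, n = 15), a log2 fold change of 0.14 with an interval from 0.04 to 0.24 (limma unadjusted p = 0.00594, adjusted p = 0.964), and 17 of 19 vehicle tumors lay above the untreated median of their study. At 1 h the vehicle tumors had YAP1 at 70.6, 82.7, 73.1, 88.3 and 70.1 FPKM and the untreated ones at 60.3, 62.9, 77.5, 74.3 and 64.2 FPKM. At 3-6 h vehicle ran from 63.4 to 91.4 FPKM with a median of 75.0, and untreated from 61.6 to 71.2 FPKM. At 24 h the values were 69.6, 65.9, 81.6 and 69.3 FPKM with vehicle and from 64.1 to 78.3 FPKM without. The groups overlapped in every study, and the value did not survive the adjustment over all genes.

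The score the study used for pathway output, deR, ranks 249 positive and 233 negative effectors of YAP1-TEAD among each other within a tumor and takes the mean fractional rank of the positive ones minus that of the negative ones. It was 0.214 ± 0.0139 with vehicle (SD, n = 19) and 0.215 ± 0.00986 in untreated tumors (SD, n = 15). The study-adjusted difference was -7.64e-05 (two-sided permutation test within study, 100000 resamples, p = 0.986), against an SD within groups of 0.0126. By exact permutation within a study the differences were 0.00477 at 1 h (p = 0.532), -0.00576 at 3-6 h (p = 0.447) and 0.00299 at 24 h (p = 0.690). At 24 h the 4 vehicle tumors ran from 0.200 to 0.232, the 5 untreated tumors from 0.204 to 0.229 and the 5 tumors given 200 mg/kg K-975 from 0.154 to 0.190.

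The genes with the smallest p values are given as a description, since none passed. DOLPP1, a dolichyl pyrophosphate phosphatase of protein N-glycosylation, had the smallest p of all (limma unadjusted p = 0.000184, adjusted p = 0.919). In the 1 h study it was at 2.84, 2.39, 2.06, 2.93 and 3.68 FPKM with vehicle and at 4.44, 3.72, 3.87, 3.95 and 3.45 FPKM without. At 3-6 h the vehicle tumors ran from 1.87 to 4.47 FPKM with a median of 3.19, and the untreated ones from 3.19 to 4.95. At 24 h vehicle gave 2.08, 3.7, 2.76 and 2.52 FPKM and untreated 3.22, 4.93, 3.75, 3.62 and 4.98 FPKM. The groups overlapped in each study, 2 of 19 vehicle tumors lay above the untreated median, and the log2 fold change of DOLPP1 was -0.39 ± 0.09 (SE), with -0.38, -0.36 and -0.44 in the 3 studies.

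HSD3B7, a dehydrogenase of bile acid synthesis, was the first on the higher side. It was at 8.45 ± 1.73 FPKM with vehicle (SD, n = 19) and 6.44 ± 1.61 FPKM in untreated tumors (SD, n = 15), a log2 fold change of 0.39 (interval 0.19 to 0.58). TPGS2, a subunit of the tubulin polyglutamylase complex, was above the untreated median in 19 of 19 vehicle tumors, yet its difference was small, 35.0 ± 2.51 against 30.6 ± 4.14 FPKM and 0.19 on the log2 scale (interval 0.08 to 0.31). CHRDL1, a secreted BMP antagonist, had the largest fold among these, 137 ± 34.2 FPKM with vehicle and 100 ± 33.6 FPKM without, 0.52 (interval 0.23 to 0.81), with within-study values of 0.39, 0.60 and 0.55. The remaining genes that headed the higher side with 1 sign in all studies were ADAL, ADAMTSL4, ARSB (the lysosomal arylsulfatase B), TMEM178B, HINT3, UNC13D (a regulator of granule exocytosis), PRKAG2 (a subunit of AMP-activated kinase), METAP2 (a methionine aminopeptidase) and GSTZ1, with log2 fold changes from 0.25 for ADAMTSL4 to 0.46 for ADAL.

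On the lower side, C1QTNF3, a secreted C1q-like protein, had -0.60 (interval -0.90 to -0.29). Its vehicle tumors at 1 h were at 0, 0.0659, 0, 0.428 and 0.479 FPKM and the untreated ones at 1.74, 1.85, 0.581, 0.925 and 1.21 FPKM, levels at which few fragments are counted. VAMP4, a SNARE of the trans-Golgi network, had -0.62 (interval -0.98 to -0.27), of which the 1 h study gave -1.18 and the 3-6 h study -0.26. CDH2, the N-cadherin of mesothelial cells, was at 107 ± 8.90 FPKM with vehicle (SD, n = 19) and 116 ± 7.90 FPKM in untreated tumors (SD, n = 15), a log2 fold change of -0.13 (interval -0.20 to -0.05, unadjusted p = 0.00207). The others were VPS50, ZNF83, HAUS8, GPR153, CCT4 (a subunit of the chaperonin that folds actin and tubulin), PARK7, PRPF3 (a splicing factor) and DPH5, from -0.11 for PARK7 to -0.43 for VPS50. All 24 genes had an adjusted p of 0.919.

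Within single studies 0 genes passed as well. The limma counts at an unadjusted p under 0.05 were 567 (4.55%) at 1 h, 592 (4.75%) at 3-6 h and 518 (4.16%) at 24 h, and the smallest adjusted p values were 0.579, 0.314 and 0.753. The genes that passed in a single study under some alternative, RUSF1 and RBM4B at 1 h without vehicle tumor 1, FTO at 24 h without untreated tumor 3, and A2M at 24 h without a filter on low values, were singled out after their values were seen. At 3-6 h the smallest belonged to LRRC37B, a gene of a duplicated family among whose copies reads can be split. Its 10 vehicle tumors ran from 4.04 to 7.49 FPKM with a median of 5.49, and the 5 untreated ones from 1.34 to 3.09 FPKM, so the groups did not overlap there. The log2 fold change of LRRC37B was 0.94 at 3-6 h, 0.17 at 1 h and 0.06 at 24 h, and the untreated tumors of the other studies, at 2.93 to 5.79 and 3.47 to 7.63 FPKM, reached the range of the 3-6 h vehicle tumors. TELO2 and EDA2R, a p53-induced receptor, led the lower side at 3-6 h with -0.41 and -0.44. At 1 h LPXN (1.24) and MDC1 (0.76) led the higher side and PDSS1 (-1.01) and SNUPN (-0.46) the lower side. At 24 h SUB1 (0.48) and WARS1 (0.56), a tryptophanyl-tRNA synthetase, led the higher side, and CFD (-0.85) and RPL21 (-1.36), a ribosomal protein gene with many processed copies, the lower side.

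The vehicle effect did not differ between studies for any gene at the threshold. By limma's moderated F-test of the interaction 0 genes passed, 510 (4.1%) had an unadjusted p under 0.05, and the smallest adjusted p, 0.185, was that of RUSF1, the 1 gene that passed when vehicle tumor 1 of the 1 h study or vehicle tumor 1 of the 24 h study was left out. RUSF1 was at 42.7, 31.6, 30.1, 32 and 26.5 FPKM with vehicle and at 42.8, 49.2, 45.4, 39.2 and 45.2 FPKM without at 1 h. At 24 h it was at 34.3, 48.5, 51.5 and 38.4 FPKM with vehicle and at 28.6, 33.9, 30, 34.5 and 32.7 FPKM without. Most vehicle tumors were therefore lower at 1 h and higher at 24 h, with log2 fold changes of -0.45 and 0.41, and at 3-6 h the value was 0.12. CFD, the complement factor D that fat cells secrete, was at 6.57, 4.65, 5.34 and 5.9 FPKM with vehicle and at 9.29, 8.47, 14.8, 10.7 and 12.1 FPKM without at 24 h. The groups of CFD did not overlap at 24 h, whereas at 3-6 h they did, at 7.12 to 13.1 and 5.64 to 9.36 FPKM (interaction adjusted p = 0.992). SUB1, PGPEP1, LPXN and FRS3 completed the 6 genes with the smallest interaction p, with interaction adjusted p values of 0.992 for SUB1 and 0.998 for the other 3.

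The 3-6 h study allowed the arm to be split by cage group, since its vehicle tumors came from cage groups 2 and 3. This split was added after the data were seen. Vehicle cage group 2 minus untreated gave 0 genes at an adjusted p under 0.05 and 480 (3.86%) at an unadjusted p under 0.05. Vehicle cage group 3 minus untreated gave 5 genes (0.0402%) past the threshold and 1117 (8.97%) at an unadjusted p under 0.05. The vehicle cage groups differed from each other in 29 genes (0.233%) at an adjusted p under 0.05, and in 5 to 100 genes when 1 tumor was left out. In the pooled comparison they were averaged, and cage group, position in the 3 to 6 h window and any other difference between the cages cannot be told apart.

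Of the 5 genes past the threshold for cage group 3 minus untreated, 4 are described here. FNIP1, a folliculin partner in AMPK and mTORC1 signaling (GRCh38 chr5:131641713-131797017), was at 93.1 to 100.0 FPKM in cage group 3, 62.4 to 74.9 in cage group 2 and 65.7 to 78.4 FPKM in untreated tumors, 5 tumors each. Cage group 3 lay above both others without overlap, and the log2 fold change of FNIP1 against untreated was 0.40 ± 0.07 (SE) in cage group 3 (limma adjusted p = 0.0139) and -0.06 in cage group 2 (interval -0.20 to 0.08). FNDC3B had 0.46 (limma adjusted p = 0.0194) in cage group 3 and 0.02 in cage group 2, and FBXO32, the ubiquitin ligase subunit atrogin-1 that FOXO factors induce in wasting muscle, had 1.90 (limma adjusted p = 0.0463) and 0.13. RBM4, a splicing regulator whose near copy RBM4B lies beside it, fell by 0.49 on the log2 scale in cage group 3 (limma adjusted p = 0.0161), to 32.0 to 41.3 FPKM from 43.4 to 57.9 FPKM in untreated tumors, and was at -0.02 in cage group 2.

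**Figure D5:**
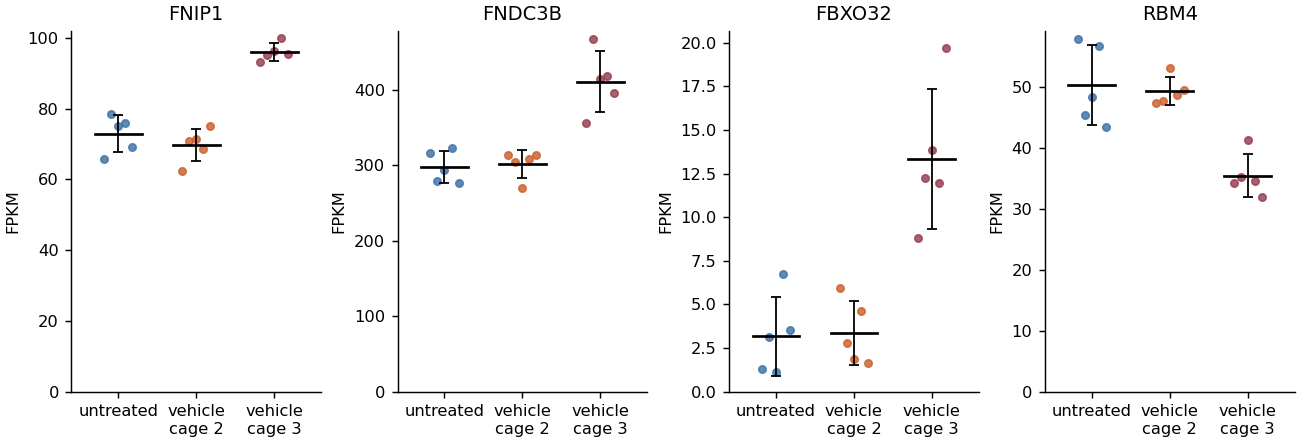
FPKM of 4 genes past the threshold for vehicle cage group 3 minus untreated in the 3-6 h study, with 5 tumors in each group, the mean as a horizontal line and the SD as an error bar. Cage group 3 lies outside the untreated range for each gene, for example 93.1 to 100.0 against 65.7 to 78.4 for FNIP1, whereas cage group 2 overlaps the untreated tumors.

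These 4 genes had pooled log2 fold changes near 0 over all 19 vehicle tumors, 0.08 for FNIP1, 0.03 for FNDC3B, 0.14 for FBXO32 and -0.11 for RBM4, each with an interval that included 0. When each of the 15 tumors of the study was left out in turn, FNIP1 passed in 13 of the 15 fits, RBM4 in 10, FNDC3B in 7 and FBXO32 in 6. The count for cage group 3 minus untreated was then 1 without untreated tumor 1 or vehicle tumor 9, 2 without vehicle tumor 7 or 10, 3 without untreated tumor 2 or 3 or vehicle tumor 8, and 30 without vehicle tumor 6, and it was 3 with eBayes run without its trend and robust settings. The split also ran through the gene lists. For hypoxia and glycolysis the list median was 0.51 for cage group 3 minus untreated and -0.08 for cage group 2 minus untreated. For the interferon list the medians were 0.34 and -0.04, for the metallothioneins 0.70 and 0.30, for the glucocorticoid list 0.26 and -0.10, and for the inflammatory list 0.48 and -0.21. For the YAP1-TEAD list they were -0.07 and 0.00. Both columns share the same 5 untreated tumors, and no member of these lists passed against untreated in either cage group. Members did pass between the vehicle cage groups. For cage group 3 minus cage group 2, hypoxia and glycolysis had 20 of 20 genes higher (48.5% of all genes) and 19 at an unadjusted p under 0.05 (10.2% of all genes). Of its genes 3 passed the threshold (0.233% of all genes). Glucose sensing had 7 of 12 genes higher and 4 past the threshold. Other lists were also one-sided, with genes at an unadjusted p under 0.05 in brackets. Higher were 20 of 20 inflammatory (8), 20 of 20 interferon (9), 12 of 12 glucocorticoid (6) and 4 of 4 metallothionein genes (2). In sterol synthesis 3 of 19 genes were higher (5), and in fatty acid synthesis 1 of 10 (2). No gene of these other lists passed. The lists share members, HK2 and SLC2A1 among them, so the counts can hold the same genes and are not separate results.

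Sums of markers of other cells were also set side by side for cage group 3, without a test. In a whole tumor, fewer cells of a type and less RNA per cell cannot be told apart, and how reads from the mouse host were handled is not given in the sources used here. The summed endothelial markers were at 77.5, 81.1, 82.7, 93.3 and 105 FPKM in cage group 3, from 83.8 to 126 FPKM in cage group 2 and from 99.3 to 131 FPKM in untreated tumors of that study, so 4 of the 5 tumors of cage group 3 lay below all untreated ones. The macrophage and myeloid sum was at 95.0 to 271 FPKM in cage group 3, 46.1 to 170 in cage group 2 and 56.6 to 135 FPKM in untreated tumors, and the fibroblast sum at 635 to 902, 759 to 997 and 764 to 1073 FPKM. The sums lean on their highest genes, such as COL1A1 at up to 894 FPKM, CD68 at up to 265 FPKM and KDR at up to 104 FPKM. For cage group 3 minus untreated, the list medians of the log2 fold change were -0.29 for endothelial, -0.04 for macrophage and -0.24 for fibroblast markers. The macrophage sum and the macrophage list median thus differed in direction. The part of other cells in the gene results of cage group 3 was not tested.

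Identity markers and library measures were compared between the arms. All tumors came from 1 cell line, so identity genes cannot check the arm labels. The identity genes of the line, 14 of 14 tested, had 5 higher and 9 lower members with a median of -0.038 and 0 past the threshold, and MSLN, the mesothelial surface antigen mesothelin, was at 247 ± 28.6 FPKM with vehicle (SD, n = 19) and 258 ± 35.3 FPKM in untreated tumors (SD, n = 15). Libraries resembled each other about equally within and across arms: the median correlation of log2 values was 0.966 between tumors of the same study and arm, 0.968 between arms of a study and 0.964 between studies. Genes reaching 1 FPKM numbered from 11356 to 11593 with vehicle and from 11344 to 11560 without (permutation p = 0.615, adjusted p = 0.939 over 9 library measures). Between 15.5 and 17.7% of all FPKM of a vehicle tumor, and between 15.7 and 17.4% in an untreated one, fell on its 10 highest genes (permutation adjusted p = 0.939). The median SD of log2 values within groups was 0.284 with vehicle and 0.263 without.

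Over the 3 studies the summed markers of other cells gave no adjusted p under 0.05 between the arms. The handling of mouse reads is unknown and several markers were at 0 in every library. These sums therefore cannot decide whether cells of the mouse host differed between the arms. Summed macrophage and myeloid markers ran from 46.1 to 271 FPKM with vehicle and from 56.6 to 270 FPKM without, and CD68, at up to 265 FPKM, was the highest of the 13. AIF1, TYROBP and CD163 were at 0 in every library, and LYZ and MRC1 were under 1 FPKM in every library. ITGAM had the smallest p of the 4 tested of 13, at -0.13 (unadjusted p = 0.362). Endothelial markers summed to 50.4 to 126 and 52.1 to 131 FPKM, with CLDN5 and ERG at 0 and TEK under 1 FPKM in every library. CDH5 had -0.15 (unadjusted p = 0.196). Fibroblast markers summed to 635 to 1302 and 706 to 1140 FPKM with none of 9 at 0 in every library. COL1A1, at up to 894 FPKM, was the highest of them, whereas COL1A2 and POSTN were under 1 FPKM in every library. PDGFRB had 0.16 (interval 0.05 to 0.27, unadjusted p = 0.00464), and of the 6 tested members 2 were higher. Erythroid markers summed to at most 5.11 and 8.47 FPKM with 6 of 8 at 0, and HBA2 had -0.11 (unadjusted p = 0.727). Skeletal muscle markers summed to at most 3.00 and 4.79 FPKM, with CKM at 0 and MYL11 at -0.30 (unadjusted p = 0.221). Keratinocyte markers, of which KRT5 is also in the identity list, summed to 640 to 1407 and 490 to 1517 FPKM, and KRT10 had -0.06 (unadjusted p = 0.717). Adipocyte markers, with ADIPOQ, LEP, FABP4 and LPL at 0 in every library and CFD nearly the whole sum, ran from 4.77 to 13.6 and from 5.83 to 15.8 FPKM, with the smallest adjusted p of the 9 measures (permutation p = 0.0718, adjusted p = 0.646).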

How the data were processed

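RNA sequencing of whole tumors was deposited by the authors as 1 table of FPKM values, 1 column per tumor, without counts. Read depth is therefore unknown, and no interval for counting error can be given. The submitters' processing notes name STAR and GRCh38. The quantifier and the treatment of mouse reads are not given in the sources used here. The paper's methods list KAPA target enrichment of the libraries without naming the genes it covers. A value at or near 0 can therefore also reflect the enrichment, which was not tested. The table has 20555 entries. Where a gene ID had several entries (266 IDs), the entry with the highest mean was kept, which left 20257 IDs, and 32 blank cells were read as 0. An exact 0 can be a failed estimate: of 6787 genes with a median of at least 10 FPKM, 8 were under 0.1 FPKM in at least 1 library.

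Groups followed the labels for compound, cage group and study. The 12451 genes that reached 1 FPKM in 4 or more of the 34 libraries were tested with limma 3.58.1 in R 4.3.3 on log2(FPKM + 1), two-sided, with terms for study and arm, eBayes with trend and robust settings, and Benjamini-Hochberg adjustment over all genes tested at a threshold of 0.05. Fold changes are on that scale, which understates changes of low genes. Within-study values and the interaction came from a fit with 1 coefficient per study and arm. P-values measure the spread between animals bearing 1 cell line. The deR score and library measures were tested by permuting arms within study (100000 resamples), or exactly within a study. The scripts were tested on simulated data.

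Named genes were those past the threshold, filled to 12 per direction by the smallest unadjusted p with 1 sign in the 3 studies, then the 6 smallest interaction p values, the 2 smallest p values per direction in each study, a fixed set of 32 response genes, and the member with the smallest p in each of 29 lists. The members of the comparison and all lists were chosen with earlier results of these data known, and the deR effectors are the study's own list. Lists are described by counts and medians, with no set test. Alternatives covered the pseudocount, the filter on low values, scaling, eBayes settings, study weights, cage groups, all 94 libraries, and each study and tumor left out. No sequence is shown, since no result rests on one. 1 gene past the threshold in an added comparison is not reported here.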

Additional observations from a re-analysis of the deposited data

Results flagged for a closer look

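Among 610 groups of 4 to 10 tumors that were examined (named genes, the deR score and library measures), 41 held 1 tumor whose gap to its nearest neighbor exceeded the 95% critical value of Dixon's test. The test's rate of 1 in 20 assumes independent, normally distributed values. Some groups here held mostly zeros, and some marker sums repeat the value of 1 gene, so the count cannot be set against that rate. No gene's vehicle effect differed between studies by the moderated F-test. The flagged tumors are given as values, against the range of the others of their group.

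At 1 h, untreated tumor 2 had CCN1 at 285 FPKM (others 149 to 163), CCN2 at 17.1 (7.22 to 10), TELO2 at 26.4 (20.1 to 21.6) and MSLN at 210.0 (284 to 299), so the same tumor was high for both YAP1-TEAD targets and low for mesothelin. Untreated tumor 1 had CFD at 15.8 FPKM (others 7.7 to 9.94), which was also its whole adipocyte marker sum of 15.8. Vehicle tumor 3 had MDC1 at 25.8 FPKM (8.58 to 10.2), BMAL1 at 8.15 (2.32 to 3.16) and a share of 15.9% in the 10 highest genes (16.6 to 16.7%). Vehicle tumor 1 had GPR153 at 2.58 FPKM (1.11 to 1.25), and vehicle tumor 4 had TIPARP at 9.48 (7.42 to 7.76).

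At 3-6 h, untreated tumor 2 had HBA2 at 8.47 FPKM (others 0.552 to 2.4), and its erythroid sum was the same 8.47. Untreated tumor 3 had KRT10 at 5.58 (2.86 to 3.31) and a keratinocyte sum of 1517 (731 to 934). Untreated tumor 4 had ARSB at 16.5 (11.2 to 11.6) and ADH5 at 60.4 (74.8 to 79.3). Untreated tumor 5 had METAP2 at 47 (31.2 to 35.6) and FKBP5 at 2.87 (3.76 to 4.12). Among the vehicle tumors, tumor 5 had UNC13D at 56.4 FPKM (24 to 40.4) and CCT4 at 99.8 (74.9 to 87.4), tumor 9 had VAMP4 at 4.92 (0.375 to 2.72) and ANKRD1 at 2.14 (0.83 to 1.52), and tumor 10 had FOS at 23 (2.86 to 9.57). Vehicle tumor 7, of cage group 3, had C1QTNF3 at 3.75 FPKM (0.23 to 1.56), IRS2 at 28.4 (9.47 to 17.1), SAA1 at 2271 (439 to 1337) and PGD at 48.7 (62.4 to 73.3).

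At 24 h, vehicle tumor 4 had CCT4 at 73.9 FPKM (others 85.9 to 88.3), PGPEP1 at 2.06 (0.922 to 1.11), SCD at 1562 (1047 to 1120) and CCN1 at 196 (263 to 268). Vehicle tumor 3 had MT2A at 589 (806 to 851), HBA2 at 0 (1.79 to 1.85), an erythroid sum of 0.0674 (1.79 to 1.86), MYL11 at 1.42 (0 in each of the others) and a muscle sum of 2.25 (0.303 to 0.566). Untreated tumor 3 had EDA2R at 19.6 (13.4 to 14.4), MYL11 at 0.776 (0 in each of the others) and a muscle sum of 2.56 (0.0353 to 0.406), and untreated tumor 5 had ARSB at 22.2 (15.2 to 16.8).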

How the results depend on the processing

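No paired analysis was possible because the labels carry no replicate numbers that link vehicle and untreated animals. Over the 3 studies 0 genes passed by limma under every alternative run, each tumor left out in turn included. The genes at an unadjusted p under 0.05 were 3.98 to 7.09% of those tested, except 0.787% in a fit to all 94 libraries, 3 of which held few genes. The 7.09% came with vehicle cage group 3 alone at 3-6 h, against 4.61% with cage group 2 alone. The smallest adjusted p of any alternative was 0.0995. Scaling moved the median of all genes by at most 0.01.

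Within studies, 1 gene passed at 24 h without a filter on low values, and with tumors left out the counts ran from 0 to 2 at 1 h, 0 to 1 at 24 h and 0 to 1 for the difference between studies. Cage group 3 minus untreated gave 3 genes with eBayes run without trend and robust, and 1 to 30 with tumors left out. Cage group 3 minus cage group 2 gave 16 under that setting, 16 without a filter, and 5 to 100 with tumors left out. The cause was not tested. The deR difference turned sign, with no p past the threshold, to 9.57e-05 with effectors passing the filter, 0.00393 without the 3-6 h study and 0.00128 with cage group 3 alone, and ran from -0.0017 to 0.00142 with tumors left out.

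Of the named genes' differences that turned sign, none passed in either direction. In the fit to all 94 libraries, and with the same values when studies were weighted equally, these were CCN1 0.015, CYP1B1 -0.0031, FRS3 0.032, PGPEP1 -0.043 and TSC22D3 -0.0099. Leaving out the 1 h study gave ARRDC4 -0.018, BMAL1 -0.098, DBP 0.17, DDIT4 0.065, KRT10 0.023, LPXN -0.33, MDC1 -0.11, PGPEP1 -0.16 and TEAD4 -0.036. Leaving out the 24 h study gave CCN1 0.015, CYP1B1 -0.0073, NR1D1 0.017, RPL21 0.18, RUSF1 -0.12, SUB1 -0.15 and TEAD4 -0.018. Leaving out the 3-6 h study gave CCN1 0.13, CCN2 0.040, CYP1B1 -0.074, EGR1 -0.031, FRS3 0.36, HBA2 0.37, HMOX1 -0.038, IRS2 -0.0062, ITGAM 0.013, PGPEP1 -0.18, RUSF1 -0.045, SCD -0.0052, TEAD1 0.018, TELO2 0.061, TSC22D3 -0.32 and WWTR1 -0.031. Without a study term the values were CYP1B1 -0.017, DBP 0.15, HMOX1 -0.023, IRS2 -0.052 and TEAD1 0.023. A pseudocount of 0.1 gave CYP1B1 -0.021, a pseudocount of 5 gave DBP 0.010, and a shift to the same median gave CCN1 0.0036. Cage group 2 alone gave CYP1B1 -0.014, EGR1 -0.0031, FRS3 0.033, HMOX1 -0.14, IRS2 -0.070 and TSC22D3 -0.024. Using cage group 3 alone gave CCN1 0.059, FRS3 0.024, HBA2 0.037, NR1D1 0.052, NR4A1 0.0090 and PGPEP1 -0.047.

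With each tumor left out in turn, the genes that turned sign had these ranges: BMAL1 -0.0084 to 0.13, CCN1 -0.052 to 0.035, CYP1B1 -0.040 to 0.064, DBP -0.11 to 0.068, FRS3 -0.071 to 0.036, HBA2 -0.19 to 0.088, HMOX1 -0.026 to 0.089, INSIG1 -0.0099 to 0.087, IRS2 -0.0060 to 0.064, KRT10 -0.12 to 0.0054, NR1D1 -0.082 to 0.0020, PGPEP1 -0.060 to 0.080, RUSF1 -0.016 to 0.059, SUB1 -0.011 to 0.064, TEAD4 -0.0052 to 0.060, TSC22D3 -0.026 to 0.15 and WWTR1 -0.012 to 0.074.

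FPKM values without counts leave the depth unknown, and the single studies were less precise than the pooled fit, with median interval half-widths of 0.360, 0.312 and 0.382 on the log2 scale.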
